A study of Mus musculus and Homo sapiens with 27 samples.

Results

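Glycolysis, the chain of cytosolic reactions that splits glucose into pyruvate and lactate, was described through 10 mouse genes in MC38 cells and 7 human genes in HEK293T cells. The mouse members are Hk2, Pfkl, Aldoa, Tpi1, Gapdh, Pgk1, Pgam1, Eno1, Pkm and Ldha, found by symbol among the 56691 features counted in MC38. The human members are ALDOA, TPI1, GAPDH, PGK1, ENO1, PKM and LDHA, found by Ensembl ID among the 57992 features counted in HEK293T. All 10 and all 7 passed the filter on low counts. The members were chosen by function, with earlier results of these data known.

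The enzymes act in a fixed order. Hexokinase and phosphofructokinase spend ATP to prime the sugar, aldolase cuts it, triose phosphate isomerase interconverts the products, and the enzymes from GAPDH to pyruvate kinase harvest ATP and NADH. Lactate dehydrogenase then turns pyruvate into lactate and returns NAD+, a step that tumour and cultured cells use heavily. All of these proteins are soluble and are made on ribosomes in the cytosol, without the signal sequence that directs a nascent chain to the endoplasmic reticulum (ER). Their mRNAs are therefore a familiar point of comparison when RNA near the ER membrane is collected.

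The study used bioluminescence to drive labelling of RNA close to an enzyme. The cells, MC38 from a mouse colon carcinoma and HEK293T from human embryonic kidney, stably expressed an enzyme abbreviated LAP at a site abbreviated ERM, read here as the ER membrane; all groups carry it. Label_Enrich is RNA from cells given a compound that the labels call PA (10 mM) and furimazine, a luciferase substrate (50 µM), for 15 to 60 min, joined to biotin and taken up on streptavidin beads. NonLabel_Enrich is bead-captured RNA titled as not labelled, and the labels do not say which reagent was withheld. Label_Input is RNA of the labelled cells set aside before the beads, and no input library of unlabelled cells was analysed here. Each group has 3 libraries in each set, HEK293T 3G and MC38 12G, and the labels do not explain 3G and 12G. A further MC38 set, 3G, held shallower counts of the 12G libraries and served as a check. The labels do not say whether the 3 replicates were separate cultures or 1 clone, so the tests measure the spread between these samples.

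Totals ran from 13127181 to 18614808 counts per library in MC38 12G and from 442059 to 1135243 in HEK293T 3G. The mouse libraries thus held far more reads, but this did not carry over to every member. Gapdh had 239 to 503 counts per MC38 library, and GAPDH had 276 to 737 per HEK293T library. In MC38 12G a single feature without a name took 58.5% to 80.9% of each library. Levels are counts scaled to a common library total (CPM) with TMM factors, which set each library against the bulk of its tested genes; they are relative levels, and less of an mRNA in a sample cannot be told apart from fewer cells contributing it. Plain library totals without TMM shifted all fold changes of MC38 genes upwards, by a median of 1.62 on the log2 scale between Label_Enrich and Label_Input, 0.32 between Label_Enrich and NonLabel_Enrich and 1.30 between NonLabel_Enrich and Label_Input. Every "higher" and "lower" in the text is relative to that bulk. The MC38 label was compared with marker genes. Of 5 epithelial markers, Krt8, Krt18, Krt19 and Epcam had at most 4 counts in any library and Cdh1 at most 19. The mesenchymal markers Vim, Col1a1, Col1a2, Fn1 and Sparc all passed the filter on low counts. They ran from Col1a2 at 26.6 CPM to Vim at 603 CPM in Label_Enrich, against 13.2 and 660.1 CPM in Label_Input. Of 6 blood and 3 endothelial markers, only Cd68 passed the filter, at 1.62 CPM in Label_Enrich, against 2.37 CPM in Label_Input.

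To show what the cytosolic and ER-directed ends of sugar metabolism look like at the point where nascent chains are sorted, the first 120 coding bases of 2 members and 2 ER sugar enzymes are given (GENCODE M21, build GRCm38; Gapdh on the minus strand of chromosome 6, Pkm on the plus strand of chromosome 9, Adpgk on the plus strand of chromosome 9, H6pd on the minus strand of chromosome 4). Capitals mark the 11 codons, within the first 40, whose residues had the highest mean hydropathy on the Kyte-Doolittle scale, in which larger values are more water-repelling.
Gapdh: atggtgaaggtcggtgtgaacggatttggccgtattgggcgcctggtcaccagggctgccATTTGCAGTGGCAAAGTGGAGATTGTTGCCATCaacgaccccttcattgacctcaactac
Pkm: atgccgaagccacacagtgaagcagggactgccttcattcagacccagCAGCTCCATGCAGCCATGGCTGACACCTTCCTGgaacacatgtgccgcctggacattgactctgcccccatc
Adpgk: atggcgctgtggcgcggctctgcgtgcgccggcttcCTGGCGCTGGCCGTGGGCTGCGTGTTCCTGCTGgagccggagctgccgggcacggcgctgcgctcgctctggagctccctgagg
H6pd: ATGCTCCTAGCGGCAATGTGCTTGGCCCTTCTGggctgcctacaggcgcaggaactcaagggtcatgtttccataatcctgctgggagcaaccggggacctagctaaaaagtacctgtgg
The windows of Adpgk and H6pd reached 2.92 and 2.79, whereas those of Gapdh and Pkm reached 1.6 and 0.618. Adpgk and H6pd were the highest of the 4 ER sugar genes listed. G6pc3 and Slc37a4, also on that list, reached 1.75 and 1.55, near Gapdh. Over the 10 members the median was 1.10, ranging from 0.618 to 2.33, beside 1.11 over 21566 protein-coding genes and 2.69 over 8 ER chaperones. Ldha had the highest value among the members, so the measure does not part the lists completely.

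Glycolytic mRNAs as a group made up 1.20% ± 0.0221 of the counts outside the 2 most abundant features in MC38 Label_Enrich, 1.12% ± 0.0299 in NonLabel_Enrich and 1.01% ± 0.0125 in Label_Input (SD, n = 3). The HEK293T members made up 0.602% ± 0.0156 in Label_Enrich, 0.631% ± 0.0142 in NonLabel_Enrich and 0.668% ± 0.00927 in Label_Input. Of all counts, the 2 most abundant features included, the MC38 members made up 0.380% in Label_Enrich, 0.296% in NonLabel_Enrich and 0.124% in Label_Input. The HEK293T order changed, at 0.553% in Label_Enrich, 0.554% in NonLabel_Enrich and 0.518% in Label_Input. The summed share thus depends on what it is taken of. For scale, the median MC38 gene was shifted by 0.24 on the log2 scale between Label_Enrich and Label_Input when the 2 features were left out of the totals. Single enzymes differed in direction.

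Label_Enrich and Label_Input both come from labelled cells, so setting them against each other asks what bead capture changed in that RNA. In MC38, 3 of the 10 members were called higher (Hk2, Pfkl and Pkm) and 4 lower (Aldoa, Gapdh, Pgam1 and Eno1) at an edgeR adjusted p under 0.05, while Tpi1, Pgk1 and Ldha were not called. Of all 11676 tested genes, 28.7% were called, 14.2% higher and 14.6% lower. Among the 2669 genes at least as abundant as Hk2, the least abundant member, 56.4% were called, so the 7 of 10 calls are not far from what genes of this abundance showed. The median log2 fold change of the members was -0.03, beside -0.02 over all tested genes. The groups of 3 libraries did not overlap for 7 members, 3 higher and 4 lower, against 39.6% of all tested genes, 19.2% higher and 20.4% lower.

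The priming enzymes were on the higher side. Pfkl, the liver-type subunit of phosphofructokinase, stood at 58.1, 49.4 and 51.2 CPM in Label_Enrich, against 40.2, 36.0 and 38.4 CPM in Label_Input. All 3 Label_Enrich libraries lay above all 3 Label_Input libraries, a log2 fold change of 0.47 ± 0.07 (SE by edgeR, adjusted p = 2.94e-08). Hk2, a hexokinase that can bind the mitochondrial surface, stood at 18.6, 19.2 and 16.3 CPM in Label_Enrich, against 11.4, 17.9 and 13.8 CPM in Label_Input. Its groups overlapped, since Label_Input replicate 2 lay above 1 Label_Enrich library. The log2 fold change of 0.35 ± 0.10 was called (edgeR adjusted p = 0.00398), but without Label_Input replicate 1 it was 0.21 ± 0.11 (adjusted p = 0.154), and over 17 alternatives the adjusted p ran from 3.23e-05 to 0.154.

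Pkm, pyruvate kinase, the step that yields pyruvate and ATP, was the most abundant member per length in captured RNA. It stood at 818, 782 and 827 CPM in Label_Enrich, against 629, 645 and 643 CPM in Label_Input. No library of either group reached into the other, and the log2 fold change was 0.34 ± 0.04 (SE by edgeR, adjusted p = 1.45e-10).

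Gapdh moved furthest. This enzyme oxidises glyceraldehyde 3-phosphate, and its mRNA is widely used as a loading reference. It stood at 17.0, 18 and 16.6 CPM in Label_Enrich, against 33.5, 34.2 and 34.6 CPM in Label_Input. All Label_Enrich libraries lay far below all Label_Input libraries, with a log2 fold change of -0.99 ± 0.08 (SE by edgeR, adjusted p = 2.85e-17), which became 0.63 with plain library totals, still below the median shift of 1.62.

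Aldoa, the aldolase, stood at 146, 142 and 141 CPM in Label_Enrich, against 195, 195 and 194 CPM in Label_Input. The libraries of each group differed by only a few CPM and the groups were well apart, at -0.45 ± 0.04 on the log2 scale (SE by edgeR, adjusted p = 4.6e-13; 1.17 with plain totals). Pgam1, which moves the phosphate of phosphoglycerate, stood at 81.6, 84.3 and 78.4 CPM in Label_Enrich, against 103, 113 and 98.2 CPM in Label_Input. Its log2 fold change was -0.36 ± 0.06 (adjusted p = 5.2e-07; 1.26 with plain totals).

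Eno1, the enolase that follows it, stood at 468, 466 and 446 CPM in Label_Enrich, against 583, 535 and 546 CPM in Label_Input. The change was -0.27 ± 0.04 on the log2 scale (SE by edgeR, adjusted p = 2.26e-07; 1.35 with plain totals). Eno1 and Pgam1 remained negative but were no longer called, at -0.03 and -0.11, when libraries were scaled by their totals outside the 2 most abundant features, a scaling that shifted the median gene by 0.24.

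The other 3 members were not called with TMM. Tpi1, which interconverts the triose phosphates, had 169.7, 165 and 165 CPM in Label_Enrich, against 162, 154 and 159.7 CPM in Label_Input; its groups did not overlap, but the log2 fold change of 0.07 ± 0.05 had an adjusted p of 0.261 in edgeR. It was called higher without the filter on low counts, at 0.18 (adjusted p = 0.00187). With totals outside the 2 most abundant features, both Tpi1 and Pgk1 were called higher in edgeR, at 0.32 and 0.25 (adjusted p = 4.19e-08 and 4.03e-06), beside a median shift of 0.24. Pgk1, the first ATP-yielding enzyme, averaged 241 ± 5.53 CPM in Label_Enrich and 239 ± 6.24 CPM in Label_Input (mean ± SD of 3 libraries). Ldha, which makes lactate, averaged 446 ± 12.2 CPM in Label_Enrich and 466 ± 8.88 CPM in Label_Input, a log2 fold change of -0.06 ± 0.04 (edgeR adjusted p = 0.27; with plain totals 1.56 and with totals outside the 2 most abundant features 0.18); with a stricter filter it was called lower, at -0.10 (adjusted p = 0.0353).

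**Figure D1:**
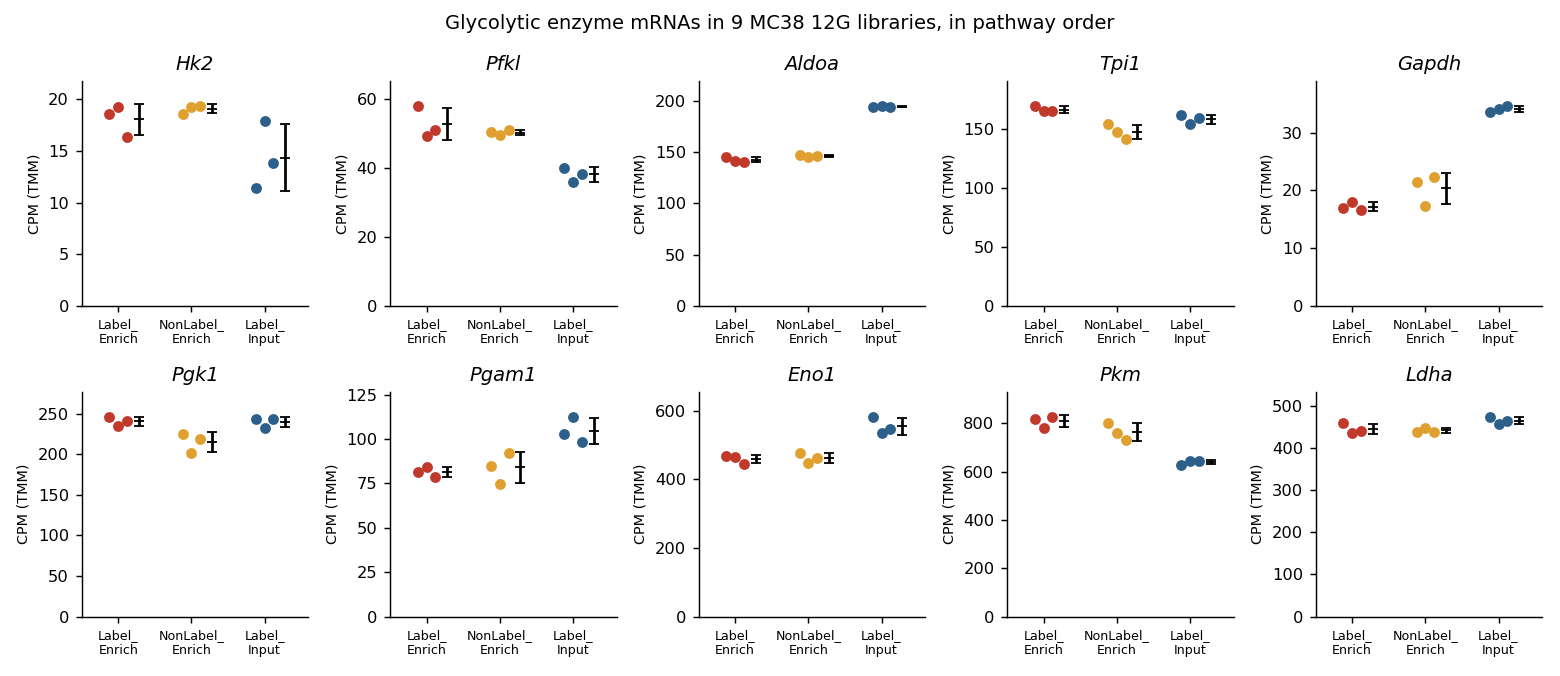
TMM-scaled CPM of each glycolytic enzyme mRNA in the 9 MC38 12G libraries, on axes that start at 0; points are libraries, and the black bar is the mean with its SD (n = 3). Gapdh lay at 16.6 to 18 CPM in Label_Enrich and 33.5 to 34.6 CPM in Label_Input, while Pfkl and Pkm lay higher in Label_Enrich; the directions are relative to the bulk of tested genes, and with plain library totals Gapdh was higher in Label_Enrich.

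The comparison of Label_Enrich with NonLabel_Enrich holds bead capture constant and asks what labelling added. Here the members were close together. Of the 10, 2 were called higher (Tpi1 and Pgk1), 1 was called lower (Gapdh) and 7 were not called, against 20.1% of all tested genes called, 10.4% higher and 9.63% lower, and 42.9% called among genes at least as abundant as Hk2. The fold changes ran from -0.24 to 0.17 on the log2 scale, with a median of 0.00, the same as over all genes.

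Tpi1 stood at 169.7, 165 and 165 CPM in Label_Enrich, against 154, 147 and 142 CPM in NonLabel_Enrich. The 2 groups did not overlap, and the log2 fold change was 0.17 ± 0.04 (SE by edgeR, adjusted p = 0.00229). Pgk1 stood at 246, 235 and 240.5 CPM in Label_Enrich, against 225, 202 and 218 CPM in NonLabel_Enrich. These groups did not overlap either, at 0.16 ± 0.04 on the log2 scale (SE by edgeR, adjusted p = 0.00413), but without NonLabel_Enrich replicate 2, the lowest library, the change was 0.12 ± 0.05 (adjusted p = 0.0788; 0.000153 to 0.0788 over 17 alternatives). Non-overlap was found for these 2 members, against 34.6% of all tested genes.

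Gapdh stood at 17.0, 18 and 16.6 CPM in Label_Enrich, against 21.5, 17.2 and 22.3 CPM in NonLabel_Enrich. The groups overlapped through NonLabel_Enrich replicate 2. The log2 fold change of -0.24 ± 0.07 was called (edgeR adjusted p = 0.011) but was not called without NonLabel_Enrich replicate 1 (-0.21, adjusted p = 0.0707) or replicate 3 (-0.17, adjusted p = 0.127), nor by DESeq2 (-0.24, adjusted p = 0.0529) or without the low-count filter (-0.21, adjusted p = 0.0552), and it was 0.08 with plain totals; over 17 alternatives the adjusted p ran from 0.000327 to 0.127.

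Apart from Gapdh, the members called against Label_Input were not called between the captured groups. Pkm averaged 809 ± 23.7 CPM in Label_Enrich and 764 ± 36.8 CPM in NonLabel_Enrich (SD, n = 3), at 0.08 ± 0.04 on the log2 scale (edgeR adjusted p = 0.144); it was called higher without the filter on low counts, at 0.11 (adjusted p = 0.0229), and with totals outside the 2 most abundant features, at 0.13 (adjusted p = 0.0158). Aldoa averaged 143 ± 2.49 CPM in Label_Enrich and 146 ± 0.938 CPM in NonLabel_Enrich. Pfkl had a log2 fold change of 0.07 ± 0.06, Hk2 -0.08 ± 0.08, Pgam1 -0.04 ± 0.05, Eno1 -0.01 ± 0.04 and Ldha 0.01 ± 0.04, and none was called by edgeR with TMM (adjusted p = 0.407, 0.541, 0.63, 0.929 and 0.874 in that order). With plain totals, Aldoa, Pgam1, Eno1 and Hk2 turned positive at 0.28, 0.27, 0.31 and 0.24, none above the median shift of 0.32.

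NonLabel_Enrich against Label_Input sets captured RNA titled as not labelled beside uncaptured RNA of labelled cells. Without an unlabelled input, capture and the treatment of the cells cannot be told apart here. The comparison shares its libraries with those above, so its values are set beside theirs as a description. In this comparison, 3 of the 10 members were called higher (Hk2, Pfkl and Pkm) and 5 lower (Aldoa, Gapdh, Pgk1, Pgam1 and Eno1), against 29.5% of all tested genes called, 14.8% higher and 14.7% lower, and 58.0% called among genes at least as abundant as Hk2. The groups did not overlap for 9 members, against 38.8% of all genes. The members' median was -0.13, beside -0.02 over all genes.

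Gapdh averaged 20.3 ± 2.74 CPM in NonLabel_Enrich and 34.1 ± 0.547 CPM in Label_Input (mean ± SD of 3 libraries), at -0.74 ± 0.08 on the log2 scale (edgeR adjusted p = 5.38e-12). Its value in Label_Enrich against Label_Input was -0.99. Aldoa stood at 147, 145 and 146 CPM in NonLabel_Enrich, level with Label_Enrich, and its change from Label_Input was -0.41 ± 0.05 (edgeR adjusted p = 1.62e-11), against -0.45 with the label. Eno1 was at -0.26 ± 0.04 and Pgam1 at -0.31 ± 0.06, with the sign they had with the label, but neither was called with totals outside the 2 most abundant features, at -0.06 and -0.11 (edgeR adjusted p = 0.267 and 0.131); all 4 turned positive with plain totals, at 0.56, 0.89, 1.04 and 0.99 for Gapdh, Aldoa, Eno1 and Pgam1, below the median shift of 1.30.

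The members called higher in Label_Enrich than in Label_Input were higher in NonLabel_Enrich as well. Pfkl stood at 50.5, 49.6 and 51.0 CPM in NonLabel_Enrich, above every Label_Input library, at 0.40 ± 0.07 (SE by edgeR, adjusted p = 3.47e-06). Hk2 stood at 18.6, 19.3 and 19.4 CPM and was at 0.43 ± 0.10 (adjusted p = 0.000603). Pkm stood at 803, 760.3 and 729.6 CPM, again above every Label_Input library, at 0.26 ± 0.04 (adjusted p = 4.15e-07).

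Pgk1 and Tpi1 behaved differently from the rest. Pgk1 was lower in NonLabel_Enrich than in Label_Input, at -0.16 ± 0.05 (edgeR adjusted p = 0.00572), while Label_Enrich and Label_Input were level. The call was lost without NonLabel_Enrich replicate 2 (-0.11, adjusted p = 0.0958; 0.000254 to 0.286 over 17 alternatives), and the value was 1.15 with plain totals and 0.05 with totals outside the 2 most abundant features. Tpi1 was at -0.10 ± 0.05 and Ldha at -0.08 ± 0.04, not called (adjusted p = 0.0945 and 0.167), and at 1.21 and 1.23 with plain totals. A stricter filter called both lower, at -0.14 and -0.11 (edgeR adjusted p = 0.00864 and 0.0235), and Tpi1 was also called without NonLabel_Enrich replicate 1, at -0.13 (adjusted p = 0.0499).

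**Figure D2:**
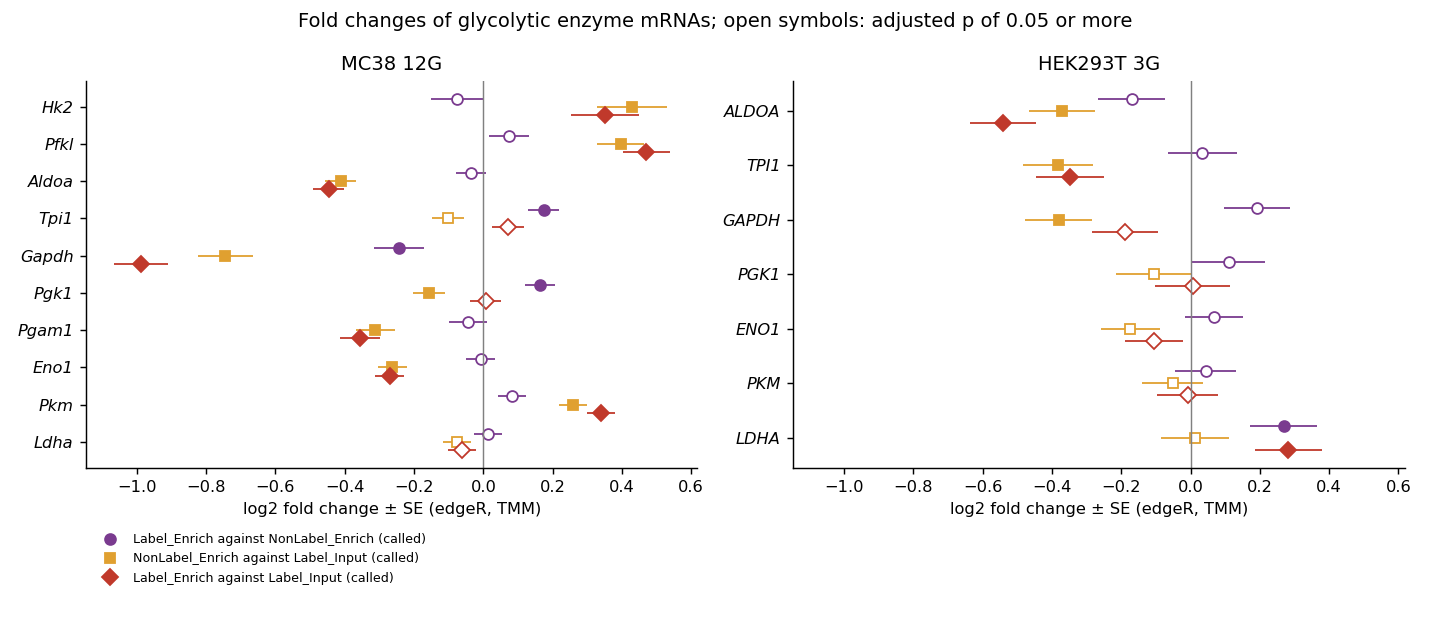
Log2 fold change with its SE (edgeR, TMM) of each member in 3 comparisons, MC38 12G on the left and HEK293T 3G on the right, in pathway order; filled symbols passed an adjusted p of 0.05 and open symbols did not. In MC38 the values against NonLabel_Enrich stay between -0.24 and 0.17, and those against Label_Input reach -0.99 for Gapdh and 0.47 for Pfkl; negative MC38 values against Label_Input turn positive with plain library totals.

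The ratio of members within 1 library needs no scaling between libraries. Pkm had 48.2, 43.4 and 49.8 counts per Gapdh count in Label_Enrich, 37.4, 44.2 and 32.7 in NonLabel_Enrich, and 18.8, 18.9 and 18.6 in Label_Input. Each captured library had a higher ratio than each input library. For all 9 other members the ratio to Gapdh was higher in Label_Enrich than in Label_Input without overlap, by 0.54 for Aldoa up to 1.46 for Pfkl on the log2 scale. The same held for 86.2% of the 11675 other tested genes (87.4% did not overlap in either direction), a share to read the 9 of 9 against. Each exact 2-sided permutation test gave p = 0.1, the smallest that 3 against 3 allows (adjusted p = 0.129 over 27 ratios and comparisons), so this design cannot pass 0.05. The same 9 ratios were higher without overlap in NonLabel_Enrich than in Label_Input, by 0.34 to 1.19, as were 72.7% of all (74.3% in either direction). Between Label_Enrich and NonLabel_Enrich all 9 means were higher in Label_Enrich, by 0.15 to 0.41, and the groups were apart for 3 of them, Pgk1, Tpi1 and Pgam1, against 30.0% of all (32.3% in either direction). All 27 share the Gapdh counts. With the summed other members in place of Gapdh, the Aldoa, Eno1 and Pgam1 ratios were lower in Label_Enrich than in Label_Input, at -0.47, -0.33 and -0.37.

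The order of levels per kilobase of transcript changed with capture. In Label_Enrich, Pkm stood at 333 ± 9.74 CPM per kb, above Ldha at 253 ± 6.94 and Eno1 at 227 ± 6.20 (SD, n = 3), and each of these neighbours was apart in all libraries. In NonLabel_Enrich the same 3 led in the same order, at 314 ± 15.1, 251 ± 3.40 and 228 ± 6.96. In Label_Input, Eno1 at 274 ± 12.4, Ldha at 264 ± 5.03 and Pkm at 263 ± 3.57 did not differ beyond their spread. Pgk1, Aldoa, Tpi1 and Pgam1 followed in Label_Input at 131 ± 3.42, 129 ± 0.313, 98.6 ± 2.44 and 58.8 ± 4.14, of which Pgk1 and Aldoa overlapped. Gapdh was near the bottom there, at 24.0 ± 0.385 CPM per kb, above Pfkl at 10.2 ± 0.555 and Hk2 at 2.61 ± 0.592. In Label_Enrich, Pfkl at 14.2 ± 1.22 lay above Gapdh at 12.1 ± 0.519, and in NonLabel_Enrich the 2 overlapped, at 13.5 ± 0.195 for Pfkl and 14.3 ± 1.93 for Gapdh. These Gapdh levels hold only the counts assigned to Gapdh itself. Near-identical copies of it, described below, held 193% of its counts. The place of Gapdh in the order, also beside Pfkl, therefore holds only for counts as assigned.

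Gapdh needs a caution that the others need less. The mouse genome holds many processed copies of it, and 71 annotated genes matched at least 50% of its transcript at 95% identity or more, beside 3 for Eno1, 2 each for Pgk1 and Ldha, 1 for Pkm and none for the other 5 members. A stretch of the Gapdh coding sequence, codons 101 to 120, shows how close they are (GENCODE M21, build GRCm38, chromosome 6, minus strand).
Gapdh codons 101 to 120: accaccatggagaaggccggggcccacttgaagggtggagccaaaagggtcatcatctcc
Of the 71 copies, 32 carry these 60 bases without a change, 17 with 1 difference and 17 with 2 to 3. The unchanged ones include the processed pseudogenes Gm5559 on chromosome 5 and Gm7336 on chromosome 7, singled out because they held the most counts. Along the whole Gapdh transcript, 82.5% of its 50-base words occur in transcripts of another gene. Eno1 and Pgk1 come near it, at 72.2% and 68.0%. The share was 41.5% for Pgam1, 34.4% for Pkm, 17.1% for Ldha, 13.9% for Aldoa and 7.51% for Tpi1. For Pfkl it was 0.054% and for Hk2 0.

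Over the 9 MC38 libraries Gapdh had 3209 counts, Gm5559 2909 and Gm7336 2082, and the 71 copies together 6182, or 193% of Gapdh. The copies of other members added at most 2.44% (Eno1). Gm5559 stood at 17.7, 16.6 and 16.6 CPM in Label_Enrich, 16.7, 13.7 and 21.0 CPM in NonLabel_Enrich, and 30.7, 31.9 and 25.5 CPM in Label_Input. It was lower in Label_Enrich than in Label_Input, as Gapdh was, at -0.78 ± 0.09 (SE by edgeR, adjusted p = 7.84e-11), and at -0.02 ± 0.08 against NonLabel_Enrich (adjusted p = 0.922). Gm7336 was at -0.52 ± 0.11 against Label_Input (adjusted p = 0.000125) and -0.18 ± 0.09 against NonLabel_Enrich (adjusted p = 0.179).

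The counts of the copies were 198% to 228% of the Gapdh counts in Label_Enrich libraries, 172% to 200% in NonLabel_Enrich and 149% to 175% in Label_Input. Gapdh and its copies summed came to 55.7, 53.8 and 53.4 CPM in Label_Enrich, 58.4, 48.7 and 67.1 CPM in NonLabel_Enrich, and 92.1, 92.1 and 86.3 CPM in Label_Input. Label_Enrich and Label_Input stayed apart, with a log2 ratio of means of -0.73 (exact 2-sided permutation p = 0.1, the smallest possible), and Label_Enrich and NonLabel_Enrich overlapped, at -0.10 (exact p = 0.7). How the authors' counting treated reads with several matches is not recorded in the labels, and which gene these reads came from was not tested.

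The members' values against Label_Input ran with transcript length. Hk2 and Pfkl, the longest at 5513 and 3730 nt, and Pkm at 2432 nt were the 3 called higher, and Gapdh and Aldoa, the shortest at 1420 and 1511 nt, had the lowest fold changes. Across the 10 members, Spearman's rho between length and log2 fold change was 0.81 in Label_Enrich against Label_Input and 0.73 without Gapdh (n = 9), beside 0.36 over 10549 protein-coding genes. These points come from the same libraries and are a description. In NonLabel_Enrich against Label_Input rho was 0.81 as well, beside 0.42 over all, and in Label_Enrich against NonLabel_Enrich it was 0.14, beside -0.12. The share of 50-base words found in other genes also moved with the fold change, at rho of -0.68, -0.71 and -0.18 in the same 3 comparisons, so length and shared sequence cannot be told apart over 10 genes.

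The median gene of like length moved less than the members at both ends. Gapdh was at -0.99 in Label_Enrich against Label_Input, and 1158 protein-coding genes of 80% to 120% of its length had a median of -0.16 with quartiles of -0.38 and 0.04. Aldoa was at -0.45 beside a median of -0.14 and a lower quartile of -0.36. Pfkl was at 0.47 beside 0.06, Pkm at 0.34 beside -0.03 and Hk2 at 0.35 beside 0.11. The upper quartiles were 0.26, 0.17 and 0.32 in that order, so Hk2 lay only just past its own. Tpi1, at 0.07, lay above the median of its length class at -0.13, and Eno1 and Pgam1 lay below theirs by 0.20 and 0.24.

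**Figure D3:**
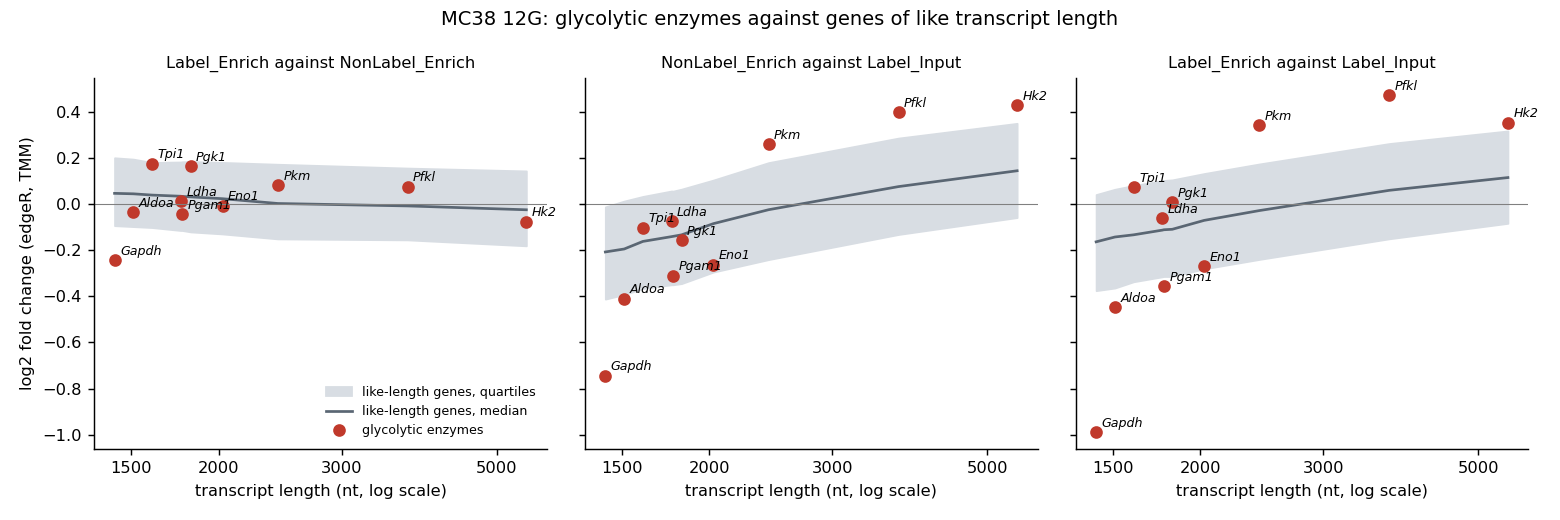
Log2 fold change of each member (red) against the length of its transcript on a log axis, in 3 comparisons of MC38 12G; the line and band are the median and quartiles of protein-coding genes of 80% to 120% of that length. Against Label_Input the long members Pfkl and Hk2 lie at the top and Gapdh at the bottom in both captured groups, whereas in Label_Enrich against NonLabel_Enrich the members lie between -0.24 and 0.17; with plain library totals all values shift upwards.

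The genes whose profiles over the 9 MC38 libraries were nearest to Gapdh and Pkm were found among 2239 with at least 20 CPM, by Euclidean distance of centred log2 CPM. Nearest to Gapdh were Mt1, a metallothionein, 1110038B12Rik, the ribosomal protein genes Rpsa and Rpl29, and Mif, a small cytokine, at distances of 0.32 to 0.43. They had log2 fold changes of -0.76 to -1.15 in Label_Enrich against Label_Input. The nearest member was Aldoa, at 0.73. Nearest to Pkm were Lmna, a nuclear lamin, Hnrnpu, an RNA-binding nuclear protein, Kdm1a, a histone demethylase, Trip12, a ubiquitin ligase, and Lars, the cytosolic leucyl-tRNA synthetase, at 0.11 to 0.14, with fold changes of 0.27 to 0.37. The nearest member to Pkm was Pfkl, at 0.30. Both sets of genes were picked by likeness over these same libraries, so their fold changes lie near those of Gapdh and Pkm by selection.

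The rest of the pathway in MC38 is given from lists of related genes. Counts called in these and the later lists are to be read beside the shares of all tested genes. For Label_Enrich against Label_Input, 14.2% were called higher and 14.6% lower, and 56.4% of genes at least as abundant as Hk2 were called. For Label_Enrich against NonLabel_Enrich the shares were 10.4%, 9.63% and 42.9%. Of 20 other isozymes and pathway enzymes, 8 passed the filter on low counts. In Label_Enrich against Label_Input, 2 were called higher and 1 lower, with a median of 0.05. Hk1, the housekeeping hexokinase, was at 66.1 ± 0.871 CPM in Label_Enrich, against 45.2 ± 1.31 CPM in Label_Input (mean ± SD of 3 libraries), at 0.55 ± 0.06 (SE by edgeR, adjusted p = 1.14e-11). Hk1 was also higher in Label_Enrich than in NonLabel_Enrich, at 0.22 ± 0.05 (adjusted p = 0.00101), the only gene of this list called there. Pfkm, the muscle-type phosphofructokinase, was at 0.44 ± 0.07 against Label_Input and Gpi1, which isomerises glucose 6-phosphate, at -0.16 ± 0.06 (adjusted p = 1.64e-06 and 0.0257). The Gpi1 call was lost with DESeq2 (-0.14, adjusted p = 0.0693), without the low-count filter (-0.05, 0.738), and without Label_Enrich replicate 1 or 2 or Label_Input replicate 1 (-0.14, -0.14 and -0.12, adjusted p = 0.0929, 0.119 and 0.193). Pfkp, the platelet type, was at 0.19 ± 0.08 and not called (adjusted p = 0.0868), but was called without Label_Input replicate 3 or without the filter (both 0.29, adjusted p = 0.0223 and 0.00497).

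The 5 regulators that set the level of the phosphofructokinase activator, Pfkfb1, Pfkfb2, Pfkfb3, Pfkfb4 and Tigar, were scarce. By edgeR 0 of them were called in any of the 3 comparisons, and 0 were under an unadjusted p of 0.05. Tigar averaged 3.03 ± 0.320 CPM in Label_Enrich and 2.81 ± 0.262 CPM in Label_Input. Of 7 cytosolic pentose phosphate genes, 1 was called higher (Pgd, 0.23 ± 0.05) and 3 lower when Label_Enrich was set against Label_Input, Taldo1 at -0.40 ± 0.07 and Pgls at -0.46 ± 0.11 among them (edgeR adjusted p = 0.000253, 2.19e-06 and 0.000954). Without Label_Input replicate 2, Pgls was at -0.31 and not called (adjusted p = 0.0654). Tkt, the transketolase, was not called, at -0.02 ± 0.07 (adjusted p = 0.825). Of the 7, 0 were called against NonLabel_Enrich, and 0 had an unadjusted p under 0.05 there. Of 10 tested genes of mitochondrial pyruvate use, 1 was called higher (Pdha1, 0.23 ± 0.07, adjusted p = 0.00794) and 2 lower (Mpc2 and Pdk3, -0.58 ± 0.19 and -0.54 ± 0.12, adjusted p = 0.0168 and 0.000308 by edgeR). Pdk1, a kinase that restrains pyruvate oxidation, was not called, at 0.16 ± 0.09 (adjusted p = 0.149), but was called without Label_Input replicate 2 or without the filter (both 0.27, adjusted p = 0.0235 and 0.0201). Mpc2 was not called by DESeq2 (-0.57, adjusted p = 0.0542), nor without Label_Enrich replicate 1 or Label_Input replicate 2 or 3 (-0.46, -0.32 and -0.57, adjusted p = 0.103, 0.311 and 0.0632). Pdha1 was not called in the shallower MC38 table (0.20, adjusted p = 0.0514).

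Membrane proteins that carry glucose and lactate are made at the ER. Of 12 transporter genes 7 were tested, of which 5 were called higher and 0 lower against Label_Input, at a median of 0.45. Against NonLabel_Enrich 3 were called higher and 0 lower, with a median of 0.38, and these 3 were the lactate carriers Slc16a1 and Slc16a3 and their partner Bsg. Of the 4 tested glucose carriers edgeR called 0 against NonLabel_Enrich, with 1 at an unadjusted p under 0.05. Of these, named after their values were seen, Slc2a1 was at 0.22 ± 0.07 against Label_Input (adjusted p = 0.0082) and 0.09 ± 0.06 against NonLabel_Enrich (0.296), and Slc2a6 at 0.55 ± 0.18 (0.0179) and 0.38 ± 0.14 (0.0501). Slc16a3, the lactate exporter of glycolytic cells, averaged 50.9 ± 0.588 CPM in Label_Enrich, 36.4 ± 1.22 CPM in NonLabel_Enrich and 28.2 ± 1.27 CPM in Label_Input (mean ± SD of 3 libraries). Its log2 fold changes were 0.85 ± 0.07 against Label_Input and 0.48 ± 0.06 against NonLabel_Enrich (SE by edgeR, adjusted p = 6.29e-17 and 5.51e-10). Slc16a1, another lactate carrier, was at 0.45 ± 0.07 and 0.38 ± 0.06 in the same comparisons (adjusted p = 9.58e-08 and 6.24e-07). Bsg, the partner protein of both carriers, averaged 98.2 ± 1.5 CPM in Label_Enrich, 67.6 ± 2.36 CPM in NonLabel_Enrich and 84.5 ± 5.62 CPM in Label_Input, at 0.22 ± 0.05 and 0.54 ± 0.05 (adjusted p = 0.000822 and 6.78e-14). Slc2a8, an intracellular sugar carrier, was not called, at -0.45 ± 0.31 against Label_Input (adjusted p = 0.304).

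The ER has sugar enzymes of its own. Adpgk, the ADP-dependent glucokinase whose coding start is printed above, averaged 10.6 ± 0.512 CPM in Label_Enrich, 7.87 ± 0.905 CPM in NonLabel_Enrich and 6.70 ± 1.12 CPM in Label_Input (mean ± SD of 3 libraries). It was higher against both, at 0.66 ± 0.13 and 0.43 ± 0.10 on the log2 scale (Label_Input first; SE by edgeR, adjusted p = 4.74e-05 and 0.00105). Hk2, which catalyses the same phosphorylation with ATP in the cytosol, was at 0.35 and -0.08. Hk1, the housekeeping hexokinase, was called higher against both as Adpgk was, at 0.55 and 0.22 (edgeR adjusted p = 1.14e-11 and 0.00101). H6pd, the luminal enzyme that opens the pentose phosphate route, averaged 13.1 ± 0.608 CPM in Label_Enrich and 10.8 ± 1.22 CPM in Label_Input, at 0.29 ± 0.11 (adjusted p = 0.0337), and 0.08 ± 0.08 against NonLabel_Enrich (adjusted p = 0.576). The H6pd call was lost with DESeq2 (0.30, adjusted p = 0.0876), with the stricter filter (0.25, 0.0733), and without Label_Enrich replicate 1 or 2 or Label_Input replicate 1 or 2 (0.26, 0.29, 0.20 and 0.30, adjusted p = 0.107, 0.0597, 0.239 and 0.0649). G6pc3, a glucose 6-phosphatase, and Slc37a4, which carries glucose 6-phosphate into the ER, were at -0.25 ± 0.17 and 0.39 ± 0.26 against Label_Input, neither called (adjusted p = 0.276 and 0.281).

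As markers at either end, all 8 ER chaperone and folding genes tested were called higher in Label_Enrich against Label_Input and against NonLabel_Enrich, with medians of 0.66 and 0.50; Hspa5 was at 0.66 ± 0.04 and 0.48 ± 0.04, Canx at 0.65 ± 0.04 and 0.48 ± 0.04, and Hyou1 at 1.09 ± 0.06 and 0.52 ± 0.05. Of 12 other abundant cytosolic genes, 1 was called higher and 7 lower against Label_Input, with a median of -0.32, and 3 higher and 3 lower against NonLabel_Enrich, with a median of -0.04. Of these cytosolic genes, Actb was at -0.49 ± 0.04, Actg1 at -0.44 ± 0.05 and Ppia at -0.69 ± 0.05 against Label_Input, and Eef1a1, an elongation factor, was not called at -0.05 ± 0.04. The glycolytic members, with medians of -0.03 and 0.00 in the same comparisons, lay beside the cytosolic genes when captured RNA was compared with captured RNA. These lists were picked with results of the same libraries known, and their medians are descriptions.

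**Figure D4:**
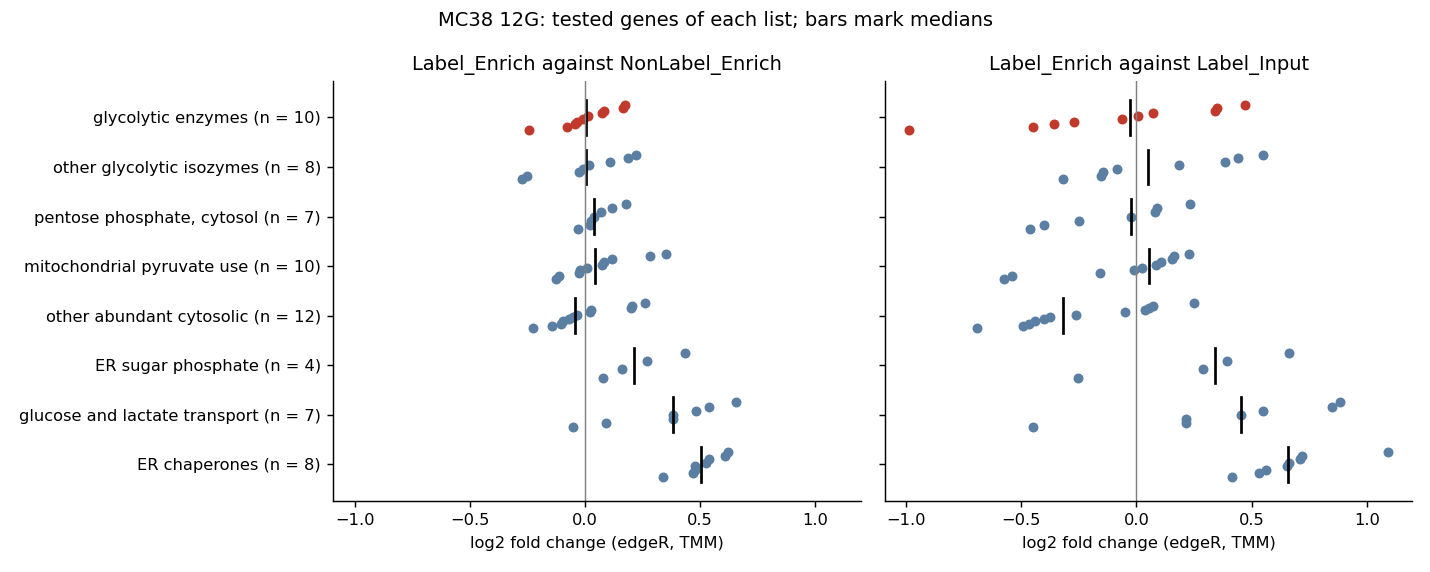
Log2 fold change (edgeR, TMM) of every tested gene of 8 lists in MC38 12G; each point is a gene and the black bar the median of its list. In Label_Enrich against NonLabel_Enrich the 10 glycolytic enzymes centre on 0.00 and the 8 ER chaperones on 0.50; in Label_Enrich against Label_Input the medians are -0.03 and 0.66, and with plain library totals all values shift upwards.

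In HEK293T the 7 human members were read at 129 to 1852 counts per library, and they were found by Ensembl ID; the HEK293T features carry no names, so marker genes of that line were not examined. Label_Enrich against Label_Input gave 1 called higher (LDHA) and 2 called lower (ALDOA and TPI1), against 29.0% of 9177 tested genes called, 17.1% higher and 12.0% lower, and 59.0% called among the 327 genes at least as abundant as the least abundant member. Label_Enrich against NonLabel_Enrich gave 1 called higher (LDHA) and 0 lower, against 23.2% called, 15.9% higher and 7.33% lower; with TMM, edgeR had 0 members lower there at an unadjusted p under 0.05, and DESeq2 called 0 members in either direction, but 3 other scalings called ALDOA lower. NonLabel_Enrich against Label_Input gave 3 called lower (ALDOA, TPI1 and GAPDH) and 0 higher, none of them higher at an unadjusted p under 0.05 in edgeR, against 7.0% called, 2.96% higher and 4.03% lower. Among genes as abundant as the members, 44.0% and 40.4% were called in the comparisons with NonLabel_Enrich. In the same order of comparisons, groups did not overlap for 4 members (1 higher and 3 lower), for 1 (higher) and for 4 (all lower), against 40.2% of all tested genes (21.3% higher), 35.1% and 23.5%.

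ALDOA stood at 644, 611 and 528 CPM in Label_Enrich, 642, 724 and 655 CPM in NonLabel_Enrich, and 809, 886 and 915 CPM in Label_Input. Every captured library lay below every input library. The log2 fold changes were -0.54 ± 0.10 for Label_Enrich and -0.37 ± 0.10 for NonLabel_Enrich against Label_Input (SE by edgeR, adjusted p = 3.92e-06 and 0.00738), beside -0.45 and -0.41 in MC38. ALDOA is the member called lower in Label_Enrich against Label_Input in both lines, and with plain totals the mouse value turns to 1.17. Label_Enrich against NonLabel_Enrich was at -0.17 ± 0.10 and not called (edgeR adjusted p = 0.216). It was called lower with upper-quartile factors, at -0.30 (adjusted p = 0.0139), with plain totals, at -0.25 (0.0407), and with totals outside the 2 most abundant features, at -0.31 (0.00935).

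TPI1 stood at 468, 443 and 503 CPM in Label_Enrich, 434, 477 and 469.6 CPM in NonLabel_Enrich, and 559, 597 and 645 CPM in Label_Input. The captured libraries again all lay below input, at -0.35 ± 0.10 for Label_Enrich and -0.38 ± 0.10 for NonLabel_Enrich (SE by edgeR, adjusted p = 0.00438 and 0.00815). The Label_Enrich call was lost without the low-count filter, at -0.27 (adjusted p = 0.0724; 6.2e-05 to 0.0724 over 16 alternatives), and with plain totals, at -0.14 (0.316). In MC38 Tpi1 was at 0.07 and -0.10 in the same comparisons, and the difference between lines was not tested.

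LDHA was the human member called higher. It stood at 697, 703 and 823 CPM in Label_Enrich, 588, 675 and 584 CPM in NonLabel_Enrich, and 613, 621 and 586 CPM in Label_Input. Label_Enrich lay above both other groups without overlap, at 0.28 ± 0.10 against Label_Input and 0.27 ± 0.10 against NonLabel_Enrich (SE by edgeR, adjusted p = 0.0209 and 0.0308). Neither call was stable. Without Label_Enrich replicate 3, the highest library, the values were 0.20 and 0.18 (adjusted p = 0.129 and 0.194). The call against Label_Input was also lost without Label_Input replicate 1, 2 or 3 (adjusted p = 0.0527, 0.0509 and 0.0777), and that against NonLabel_Enrich without NonLabel_Enrich replicate 1 or 3 or Label_Input replicate 2 (adjusted p = 0.17, 0.171 and 0.0517). Of 16 alternatives 11 kept the call against Label_Input (adjusted p from 0.00422 to 0.255) and 8 the call against NonLabel_Enrich (0.0121 to 0.286). Beside those 16, plain totals and totals outside the 2 most abundant features also lost the call against NonLabel_Enrich, at 0.18 and 0.13 (adjusted p = 0.153 and 0.341). In MC38, Ldha was at -0.06 and 0.01.

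GAPDH stood at 651, 679 and 579.8 CPM in Label_Enrich, 560.0, 602 and 521 CPM in NonLabel_Enrich, and 731, 736 and 715 CPM in Label_Input. Both captured groups lay below input; NonLabel_Enrich was called, at -0.38 ± 0.10 (SE by edgeR, adjusted p = 0.00615), and Label_Enrich was not, at -0.19 ± 0.10 (adjusted p = 0.133). With upper-quartile factors, which shifted the median gene by -0.14, GAPDH and ENO1 were called lower in Label_Enrich than in Label_Input, at -0.33 and -0.24 (adjusted p = 0.0056 and 0.0238; 0.0056 to 0.618 and 0.0238 to 0.94 over 16 alternatives). All 3 HEK293T calls of NonLabel_Enrich against Label_Input were lost without Label_Input replicate 2 (edgeR adjusted p = 0.0534 for GAPDH, 0.0662 for ALDOA and 0.0523 for TPI1). GAPDH also lost it without NonLabel_Enrich replicate 3 (0.0907), TPI1 without NonLabel_Enrich replicate 1 (0.0887) or Label_Input replicate 3 (0.0739), and ALDOA without any of these 3 (0.0602, 0.0786 and 0.0579). Of 16 alternatives 13, 11 and 12 kept the calls of GAPDH, ALDOA and TPI1, with adjusted p up to 0.0907, 0.0786 and 0.0887. With plain totals, which shifted the median gene by 0.30, the values were -0.09, -0.08 and -0.09, not called, and totals outside the 2 most abundant features lost all 3 calls too (adjusted p = 0.0698, 0.0795 and 0.0782); neither is among the 16. The mouse and human genes had the same sign against input but values of -0.99 and -0.19, and this difference was not tested.

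PKM, ENO1 and PGK1 were called in none of the 3 comparisons with TMM; beside ENO1 with upper-quartile factors, PKM was called higher in NonLabel_Enrich than in Label_Input with plain totals, at 0.24 (edgeR adjusted p = 0.0399). PKM averaged 1045 ± 38.0 CPM in Label_Enrich, 1014 ± 27.0 CPM in NonLabel_Enrich and 1053 ± 43.9 CPM in Label_Input (mean ± SD of 3 libraries), so its log2 fold change of -0.01 ± 0.09 against Label_Input stood beside 0.34 ± 0.04 for Pkm in MC38. ENO1 averaged 1677 ± 75.3, 1598 ± 77.0 and 1802 ± 94.5 CPM in the same order, and PGK1 352 ± 18.8, 325 ± 14.5 and 349 ± 22.5 CPM. The SE of 0.08 to 0.11 in HEK293T, against 0.04 to 0.10 in MC38, limits what could be called at this depth.

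**Figure D5:**
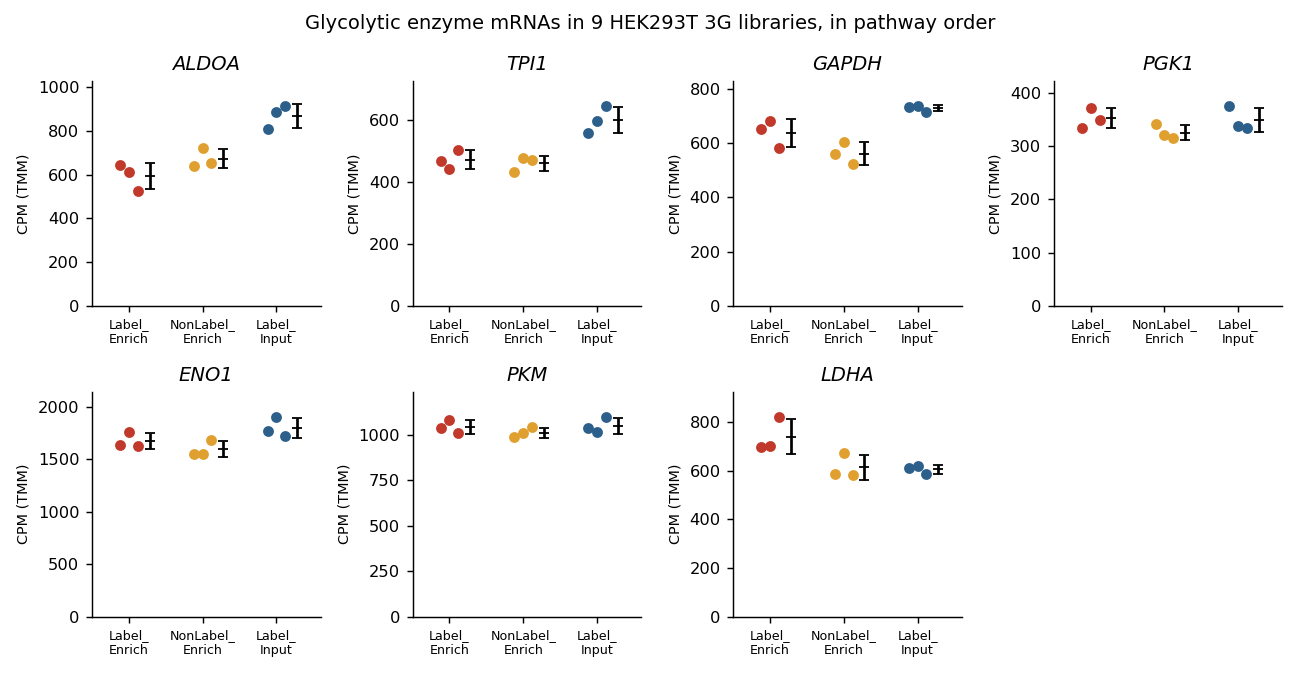
TMM-scaled CPM of the 7 human members in the 9 HEK293T 3G libraries, on axes that start at 0; points are libraries, and the black bar is the mean with its SD (n = 3). ALDOA and TPI1 lie lower in both captured groups than in Label_Input, at 528 to 724 against 809 to 915 CPM and 434 to 503 against 559 to 645 CPM, and LDHA lies highest in Label_Enrich.

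Ratios to GAPDH within HEK293T libraries differed less than in MC38. In Label_Enrich against Label_Input, 4 of 6 did not overlap, against 39.7% of 9176 other genes (29.4% higher), with LDHA at 0.48, PGK1 at 0.21 and PKM at 0.19 higher and ALDOA at -0.36 lower on the log2 scale (exact 2-sided permutation p = 0.1 each, adjusted p = 0.225 over 18). In Label_Enrich against NonLabel_Enrich 1 of 6 did not overlap, ALDOA at -0.37, against 39.1% of all (14.4% higher). In NonLabel_Enrich against Label_Input 3 did not, LDHA at 0.40, PKM at 0.32 and PGK1 at 0.28, against 38.9% of all (35.9% higher).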

How the data were processed

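Counts per gene were deposited by the authors for HEK293T 3G and MC38 12G, 9 libraries each. Per the submitters' processing notes, the tools were HTSeq 0.7.2, HISAT2 2.1.0, DESeq2 1.16.1 and cutadapt 1.18, on GRCh38 and GRCm39; the handling of strand and of multiply mapped reads is not recorded there, so antisense reads cannot be told apart. From these deposited counts, genes passing filterByExpr were fitted with edgeR 4.0.16 (quasi-likelihood F test, TMM, R 4.3.3) over all 9 libraries of a set, with 3 contrasts and Benjamini-Hochberg adjustment over all tested genes; called means an adjusted p under 0.05. SEs were obtained from the fold change and F. Ratios within libraries used exact permutation tests (SciPy 1.17.1), and copies were found with BLAST 2.17.0 in GENCODE M21 (GRCm38), which is not the files' build, so no coordinates are printed. A second feature named Aldoa was not used. Every member is named. From each other list the rule names up to 3 tested genes with the smallest p in MC38 Label_Enrich against Label_Input and the most abundant tested gene not called there, all ER sugar genes, and the 5 nearest profiles to Gapdh and to Pkm; regulators and markers are named as whole lists. Members and lists were chosen with earlier results of these data known. Alternatives were other normalizations, DESeq2 1.42.0, filters, a 2-group fit, each library left out, a replicate block and the shallower MC38 set; scaling by total counts was added after seeing the data. The MC38 3G set held 67.8% to 68.9% of the 12G totals, so 18 of 27 libraries are distinct. The fitting step was tested on simulated data.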

Additional observations from a re-analysis of the deposited data

Results flagged for a closer look

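Triose phosphate isomerase stood out between the lines. In MC38, Tpi1 had a log2 fold change of 0.07 in Label_Enrich against Label_Input, with every Label_Enrich library above every Label_Input library, although edgeR did not call it. In HEK293T, TPI1 had a log2 fold change of -0.35, with every Label_Enrich library below every Label_Input library. The HEK293T call was lost with plain totals, at -0.14 (adjusted p = 0.316), and without the filter on low counts, at -0.27 (adjusted p = 0.0724). The MC38 value was 0.18 without the filter, 0.32 with totals outside the 2 most abundant features and 1.69 with plain totals. The median gene was shifted by 0.10, 0.24 and 1.62 in these settings. With TMM, the libraries of the 2 lines lay on opposite sides of their input. Non-overlap of these groups was found for 39.6% of all tested genes in MC38 and 40.2% in HEK293T. The difference between the lines was not tested.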

How the results depend on the processing

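Counts of called genes depended most on scaling. With total counts as library sizes, chosen after seeing the data, MC38 calls numbered 11364 for Label_Enrich against Label_Input, 5999 for Label_Enrich against NonLabel_Enrich and 10930 for NonLabel_Enrich against Label_Input, against 3354, 2342 and 3440 with TMM, and HEK293T NonLabel_Enrich against Label_Input 2034 against 642. DESeq2 called 1512 genes in MC38 Label_Enrich against NonLabel_Enrich and 375 in HEK293T NonLabel_Enrich against Label_Input. With total counts the MC38 fold changes that changed sign were, for Label_Enrich against Label_Input, Gapdh 0.63, Aldoa 1.17, Ldha 1.56, Eno1 1.35 and Pgam1 1.26; for Label_Enrich against NonLabel_Enrich, Gapdh 0.075, Aldoa 0.28, Eno1 0.31, Pgam1 0.27 and Hk2 0.24; for NonLabel_Enrich against Label_Input, Gapdh 0.56, Aldoa 0.89, Ldha 1.23, Eno1 1.04, Pgk1 1.15, Tpi1 1.21 and Pgam1 0.99; and in HEK293T, PKM 0.24 for NonLabel_Enrich against Label_Input. With totals outside the 2 most abundant features, Ldha was at 0.18 for Label_Enrich and 0.13 for NonLabel_Enrich against Label_Input, and Pgk1 at 0.045 for NonLabel_Enrich. With summed other members in place of Gapdh, ratios that changed sign were Aldoa -0.47 and -0.38, Ldha -0.071 and -0.024, Eno1 -0.33 and -0.26, and Pgam1 -0.37 and -0.27 for Label_Enrich and NonLabel_Enrich against Label_Input, Pgk1 -0.11 and Tpi1 -0.0498 for NonLabel_Enrich against Label_Input, and Pgam1 -0.093 for Label_Enrich against NonLabel_Enrich. The cause was not tested beyond the scaling itself.

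Leaving out 1 library at a time gave 2763 to 3396, 1819 to 2418 and 2843 to 3382 calls in the 3 MC38 comparisons in the same order, and 2126 to 2727, 1733 to 2196 and 395 to 664 in HEK293T, the lowest without Label_Input replicate 2. Ratios without overlap numbered 21 to 27 of 27 in MC38 and 8 to 11 of 18 in HEK293T. The split of higher and lower calls moved without a filter to 2228 and 1177, 1297 and 760, and 2047 and 1237 in MC38, and to 1651 and 705 in HEK293T Label_Enrich against Label_Input and 322 and 271 in NonLabel_Enrich against Label_Input. Totals outside the 2 most abundant features gave 4077 and 721, 1659 and 830, and 3573 and 836 in MC38, and 1221 and 1443 and 635 and 275 in HEK293T Label_Enrich against NonLabel_Enrich and NonLabel_Enrich against Label_Input. In HEK293T, upper-quartile factors gave 1284 and 1768 and 1237 and 1327 in both Label_Enrich comparisons, and total counts 2271 and 485, 1298 and 1061, and 1849 and 185. With a replicate block the counts were 3346, 2375 and 3432 in MC38 and 2621, 2101 and 615 in HEK293T. No member's call changed. Deviations of same-numbered libraries from their group means correlated at -0.02 to 0.036. Such values can be counting noise alone, so they cannot tell whether the numbers pair samples. HEK293T totals are far lower, and its member SEs of 0.08 to 0.11 set what could be called there.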
